A study of Mus musculus with 8 samples.

Results

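The genes described here are 10 members of the mouse apolipoprotein family, picked by name: *Apoa1*, *Apoc3*, *Apoa4* and *Apoa5*, which lie together on chromosome 9, *Apoe* and *Apoc1*, which are neighbours on chromosome 7, and *Apob*, *Apoa2*, *Apoh* and *Apom*, each alone on chromosomes 12, 1, 11 and 17. They are 10 of 21887 protein-coding genes that could be measured. Contacts of DNA bound by RNA polymerase II (Pol II) were mapped in livers of wild type C57BL/6 mice aged 3 to 6 months, under a 12-hour light and 12-hour dark cycle with free access to food. The method, ChIA-PET, precipitates crosslinked chromatin with an antibody (here clone 8WG16), ligates the DNA ends that one complex holds, and reads a tag from both sides of each junction as a paired-end tag (PET). Experiments 1 and 3 were crosslinked with 1% formaldehyde plus 1.5 mM EGS, a longer protein crosslinker (dual crosslinking), and experiment 2 with 1% formaldehyde alone. Chromatin of 3 to 7 livers was pooled for each precipitation, and the livers were whole tissue.

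The labels list 8 libraries, 4 taken at ZT06, the middle of the day, and 4 at ZT18, the middle of the night. Experiment 1 accounts for 4 of them, and experiments 2 and 3 for 2 each. The table analysed here names the experiment of each PET but neither its library nor its time point. Day and night therefore could not be compared, each experiment is 1 pool, and no spread between mice or libraries can be given. The intervals below are exact 95% Poisson intervals, which cover counting error only, and no p-value is given. They count ends as independent, although both ends of a short PET can fall in the same stretch, so they are somewhat too narrow. Dual against single crosslinking sets 2 pools against 1, a design in which the smallest two-sided exact permutation p is 0.333.

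Apolipoproteins are the protein part of lipoprotein particles, which carry lipids in blood. *Apob* encodes the scaffold of very-low-density and low-density lipoproteins, and *Apoa1* and *Apoa2* encode the main proteins of high-density lipoprotein. *Apoe* binds lipoprotein receptors, *Apoc3* and *Apoc1* slow the clearance of triglyceride-rich particles, and *Apoa5* promotes their lipolysis. *Apom* carries sphingosine-1-phosphate on high-density lipoprotein, and *Apoh* encodes beta-2-glycoprotein I, a plasma protein that binds phospholipids. The liver is the main source of most of these proteins, whereas *Apoa4* is made chiefly by the small intestine.

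After PETs with a mitochondrial end were set aside, experiment 1 held 474466 PETs, experiment 2 held 1438852 and experiment 3 held 837971. The 2 ends lay on different chromosomes in 73.1%, 88.7% and 80.2% of these PETs, in the order of the experiments, and on one chromosome within 8 kb of each other in 22.5%, 6.23% and 14.8%. Of 6 hepatocyte markers 5 were dense in PET ends in every experiment by the measure used below, against 1.69% of protein-coding genes. *Alb* for albumin reached 105, 9.26 and 15.8 times the nuclear mean. *Serpina1a*, which has near-identical copies, was the sixth, at 5.05, 0.309 and 0.954. None of the 6 markers each of Kupffer cells, endothelial cells, stellate cells or enterocytes was dense in any experiment. Of all protein-coding genes 17.0%, 1.79% and 9.71% were dense in experiments 1, 2 and 3. Among 6 bile duct markers *Sox9* alone was, at 5.71 in experiment 1 and 4.77 in experiment 3. Enterocytes also transcribe several apolipoprotein genes, and their 6 markers ranged from 0 to 1.26 in experiment 1, where *Fabp2* and *Alpi* had 0 ends, from 0.698 to 2.00 in experiment 2 and from 0.689 to 2.43 in experiment 3. In bulk tissue, the number of cells carrying a signal and the signal per cell cannot be told apart.

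PET ends were far denser over most of these genes than over a typical gene, and the order of the genes was much alike in the 3 experiments. PET ends were counted over each gene and 2.5 kb either side and divided by the number that the mean over the nuclear chromosomes would give, which is called the relative density. Over the 10 genes its median was 29.7, 7.38 and 12.0 in experiments 1, 2 and 3, while the median protein-coding gene had 1.22, 1.20 and 1.42. A relative density of 3 or more was taken as dense, a rule of size and not a test. All 10 genes were dense in experiment 1, where 17.0% of protein-coding genes were. Experiment 2 had 6 of 10 against 1.79% of all genes, and experiment 3 had 8 of 10 against 9.71%. *Apoa1*, *Apoc3*, *Apoa5*, *Apoe*, *Apoc1* and *Apoa2* were dense in all 3 experiments, that is 6 of 10, against 1.69% of protein-coding genes. Without experiment 2 the count was 8, with *Apob* and *Apoa4* added, against 8.56% of all genes. The linker read in each PET divides every experiment into 2 subsets, and in subset 1 the count was 7, with *Apob* added, against 3.60%. Genes were chosen by name, with earlier results of these data known, so the counts are descriptions.

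The *Apoa1* and *Apoc3* windows overlap, as do those of *Apoe* and *Apoc1*, so part of their ends is counted for both genes. Counted once, the 10 windows held 1401, 644 and 692 ends, or 0.148%, 0.0224% and 0.0413% of all ends. Across the 10 genes, the relative densities of experiment 2 ranked with those of experiment 1 at a Spearman correlation of 0.964. Experiment 3 gave 0.867 with experiment 1 and 0.842 with experiment 2. These points share the antibody, the tissue and, for overlapping windows, the same PETs.

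**Figure D1:**
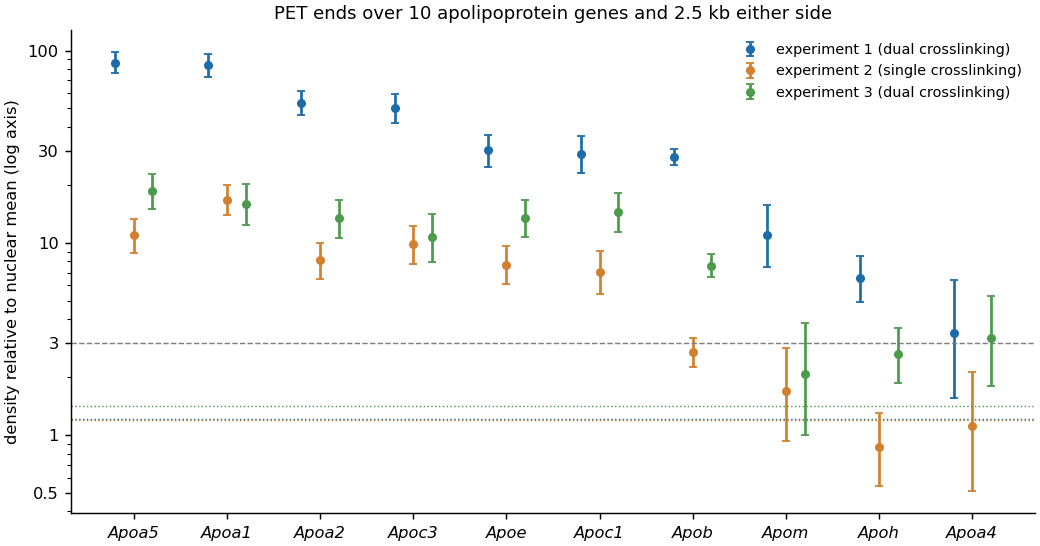
Relative density of PET ends (log axis) over each gene and 2.5 kb either side, in the 3 experiments. Bars are exact 95% Poisson intervals of the counts, the dashed line is the value 3, and dotted lines are the medians of all protein-coding genes (1.22, 1.20 and 1.42). *Apoa5* and *Apoa1* lie above all other members in experiment 1, and *Apoa4* lies lowest there.

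The 2 densest genes in experiment 1 sit at the outer ends of the chromosome 9 cluster. *Apoa5* (chr9:46268608-46271921, plus strand, GRCm38) had 251, 96 and 95 ends in experiments 1, 2 and 3. Its relative density was 86.6 (76.2 to 98.0), 10.9 (8.85 to 13.3) and 18.6 (15.0 to 22.7), which ranked it 6, 10 and 9 among the 21887 genes. *Apoa1* (chr9:46228630-46230469, plus strand) had 200, 121 and 67 ends and a relative density of 83.9 (72.7 to 96.3), 16.7 (13.9 to 20) and 15.9 (12.3 to 20.2). It ranked 7, 3 and 15. The intervals of *Apoa1* and *Apoa5* overlapped in experiments 1 and 3. In experiment 2 they were apart only narrowly, from 13.9 up for *Apoa1* and up to 13.3 for *Apoa5*. There the 121 ends of *Apoa1* came from 106 PETs and the 96 of *Apoa5* from 82, so the ends are not all independent and no difference is read from this gap.

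*Apoa2* and *Apoc3* came next in experiment 1, and their intervals overlapped in every experiment. *Apoa2* (chr1:171221564-171226379, plus strand) had 183, 84 and 81 ends, or relative densities of 53.5 (46.0 to 61.8), 8.10 (6.46 to 10.0) and 13.4 (10.6 to 16.7). *Apoc3* (chr9:46233050-46235636) had 133, 79 and 50 ends, or 50.3 (42.1 to 59.6), 9.85 (7.80 to 12.3) and 10.7 (7.94 to 14.1). Part of the *Apoc3* window is shared with *Apoa1*. Over the gene bodies alone, without the 2.5 kb either side, *Apoc3* had 64.3, 11.3 and 16.3 and *Apoa1* 156, 30.3 and 34.4, so *Apoa1* was above *Apoc3* there in each experiment.

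*Apoe* and *Apoc1* had almost the same density as each other. *Apoe* (chr7:19696244-19701310, minus strand) had 106, 82 and 83 ends, or 30.2 (24.7 to 36.5), 7.71 (6.13 to 9.56) and 13.4 (10.7 to 16.6). *Apoc1* (chr7:19689480-19692659) had 83, 61 and 73 ends, or 29.1 (23.2 to 36.1), 7.05 (5.40 to 9.06) and 14.5 (11.4 to 18.2). Their intervals overlapped in every experiment.

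*Apob*, the longest of the 10 genes, changed place between experiments. *Apob* (chr12:7977629-8016839, plus strand) had the most ends of any member, 429, 126 and 207, spread over its long window. Its relative density of 27.8 (25.3 to 30.6) in experiment 1 overlapped those of *Apoe* and *Apoc1*. In experiment 2 it was 2.70 (2.25 to 3.21) and in experiment 3 it was 7.61 (6.60 to 8.71), below the intervals of *Apoe* and *Apoc1* in both. It ranked 82, 537 and 162 among all genes.

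The 3 remaining genes were the lowest of the 10 in every experiment, though all were dense in experiment 1. *Apom* (chr17:35128997-35131801, minus strand) had 30, 14 and 10 ends, or 11 (7.44 to 15.7), 1.70 (0.928 to 2.85) and 2.08 (0.998 to 3.83). *Apoh* (chr11:108395297-108414396, plus strand) had 55, 22 and 39 ends, or 6.55 (4.93 to 8.52), 0.864 (0.541 to 1.31) and 2.63 (1.87 to 3.59). In experiment 2, *Apoh* was thus not distinguishable from the nuclear mean at this depth. *Apoa4* (chr9:46240844-46243458, plus strand) had 9, 9 and 15 ends, or 3.39 (1.55 to 6.44), 1.12 (0.511 to 2.12) and 3.20 (1.79 to 5.28), although it lies between *Apoc3* and *Apoa5*. Its 9 ends in experiment 1 were 1 of linker subset 1 and 8 of linker subset 2. In experiment 3 the intervals of *Apom*, *Apoh* and *Apoa4* all overlapped.

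No single position carried these counts. The densest 100 bp held 2 of the 9 ends of *Apoa4* in experiment 1, or 22.2%, and at most 14.3% of the ends for any other member in any experiment.

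The drop from experiment 1 to experiment 2 differed between members beyond counting error. Among the 370 protein-coding genes dense in all 3 experiments, the ratio of relative density in experiment 1 to experiment 2 had a median of 4.14, with quartiles at 2.96 and 5.50. Genes below 3 in experiment 2, such as *Apob* at 2.70, are not in this set, which tends to leave out large drops. Medians over these dense genes are thus no reference for *Apob*. *Apob* had a ratio of 10.3 (8.45 to 12.7, exact conditional 95% interval), *Apoa5* 7.93 (6.24 to 10.1) and *Apoa2* 6.61 (5.08 to 8.66). *Apoe* had 3.92 (2.91 to 5.30) and *Apoc1* 4.13 (2.93 to 5.84), both near that median. The intervals of *Apob* and *Apoe* did not overlap. Between the dual crosslinked experiments 1 and 3, the ratio was 5.27 (3.98 to 7.06) for *Apoa1* and 4.67 (3.67 to 5.97) for *Apoa5*, against 2.26 (1.68 to 3.04) for *Apoe* and 2.01 (1.45 to 2.79) for *Apoc1*, with a median of 2.54 over the dense genes. Experiment 3 over experiment 2 gave 0.951 (0.695 to 1.29) for *Apoa1* and 2.82 (2.25 to 3.55) for *Apob*, with a median of 1.60. For *Apoa1* the ratio between the 2 dual crosslinked pools, 5.27, was close to that between dual and single crosslinking in experiments 1 and 2, 5.01 (3.98 to 6.34). With 1 single crosslinked pool, crosslinking and experiment cannot be told apart.

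Ends were denser at the transcription start than in the rest of the gene for most members, as for genes at large. RefSeq promoter records of GRCm38.p6 gave strand and start for 8 of the 10 genes, *Apoc3* and *Apoc1* being the others. Over all genes with such a record, the relative density within 500 bp of the start was 10.9, 3.16 and 5.95 in the 3 experiments, against 1.16, 1.15 and 1.24 in the rest of the gene. The start was denser than the rest of the gene in 7 of 8 members in experiment 1, against 56.0% of all genes, with the outermost start taken where a gene has several. In experiments 2 and 3 it was denser in 6 of 8, against 61.3% and 67.0%, so with 8 genes this count is close to what all genes show. *Apoa2* was not among those counted in any experiment. Its outermost start had 54.5, 4.73 and 19.5, and the rest, which holds its denser inner start, 87.8, 13.8 and 19.6.

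For *Apoh*, 22, 3 and 6 ends within 500 bp of the start gave 63.0 (39.5 to 95.5), 2.84 (0.585 to 8.29) and 9.74 (3.57 to 21.2). The rest of the gene had 3.39, 0.458 and 2.27. Thus 22 of the 55 ends of the *Apoh* window in experiment 1 lay at the start, within 1001 bp. *Apob* had 97.4 (67.5 to 136), 18.9 (11.5 to 29.2) and 35.7 (22.4 to 54.0) at the start and 26.3, 2.45 and 7.27 in the rest. In *Apoa4* the start had 3, 3 and 7 ends, or 8.60 (1.77 to 25.1), 2.84 (0.585 to 8.29) and 11.4 (4.57 to 23.4), and the rest 2.71, 1.79 and 2.31.

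*Apoa1* and *Apoa5* were dense along the gene as well as at the start. *Apoa1* had 143 (106 to 189), 21.7 (13.8 to 32.6) and 19.5 (10.1 to 34.0) at the start and 133, 31.1 and 35.2 in the rest of the gene, with overlapping intervals in each experiment. The first 2.5 kb past its end still had 90.7, 17.8 and 15.6. *Apoa5* had 175 (134 to 225), 22.7 (14.5 to 33.7) and 38.9 (25 to 57.9) at its outermost start and 135, 14.1 and 25.4 in the rest. For *Apoe* the outermost of 3 annotated starts had 103 (72.3 to 143), 24.6 (16.1 to 36.0) and 38.9 (25 to 57.9), and the middle one 143, 21.7 and 50.3. Between the outermost start and the end of the gene, a stretch that holds its other annotated starts, *Apoe* had 47.0 (33.5 to 63.9), 13.9 and 25.9. That outermost start lies inside the gene span used here, so this rest covers 2444 of its 5067 bases. In experiment 1 the limits of start and rest were close, at 72.3 and 63.9. Ends of one PET are not independent, so no difference is read from that gap.

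*Apoa2* has 2 annotated starts, and the inner one carried the ends. Within 500 bp of the outer start lay 19, 5 and 12 ends, or 54.5 (32.8 to 85.0), 4.73 (1.53 to 11) and 19.5 (10.1 to 34.0). Around the inner start lay 68, 31 and 23 ends, or 195 (151 to 247), 29.3 (19.9 to 41.6) and 37.3 (23.7 to 56.0). The intervals of the 2 starts did not overlap in experiments 1 and 2. The outer start falls in a stretch shared with *Tomm40l*, a gene for a mitochondrial import protein that overlaps *Apoa2*, and without strand the reads of overlapping genes cannot be told apart. *Tomm40l* itself had 33.5, 4.21 and 10.7 over its body.

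Past its end *Apob* differed between experiments. The 2.5 kb past the annotated end had 36, 3 and 7 ends, or 41.3 (28.9 to 57.2), 1.14 (0.234 to 3.32) and 4.55 (1.83 to 9.37). All genes together had 2.28, 1.16 and 1.63 there. Along the gene in 5 equal parts, from start to end, experiment 1 had 41.7, 20.9, 12.4, 20.5 and 43.2. Experiment 2 had 6.63, 2.05, 1.69, 1.45 and 2.29, and experiment 3 had 10.6, 6.21, 5.39, 8.91 and 7.87. The first and last parts were thus alike in experiment 1, while in experiment 2 the first part was above the last, at 5.00 to 8.64 against 1.38 to 3.58.

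**Figure D2:**
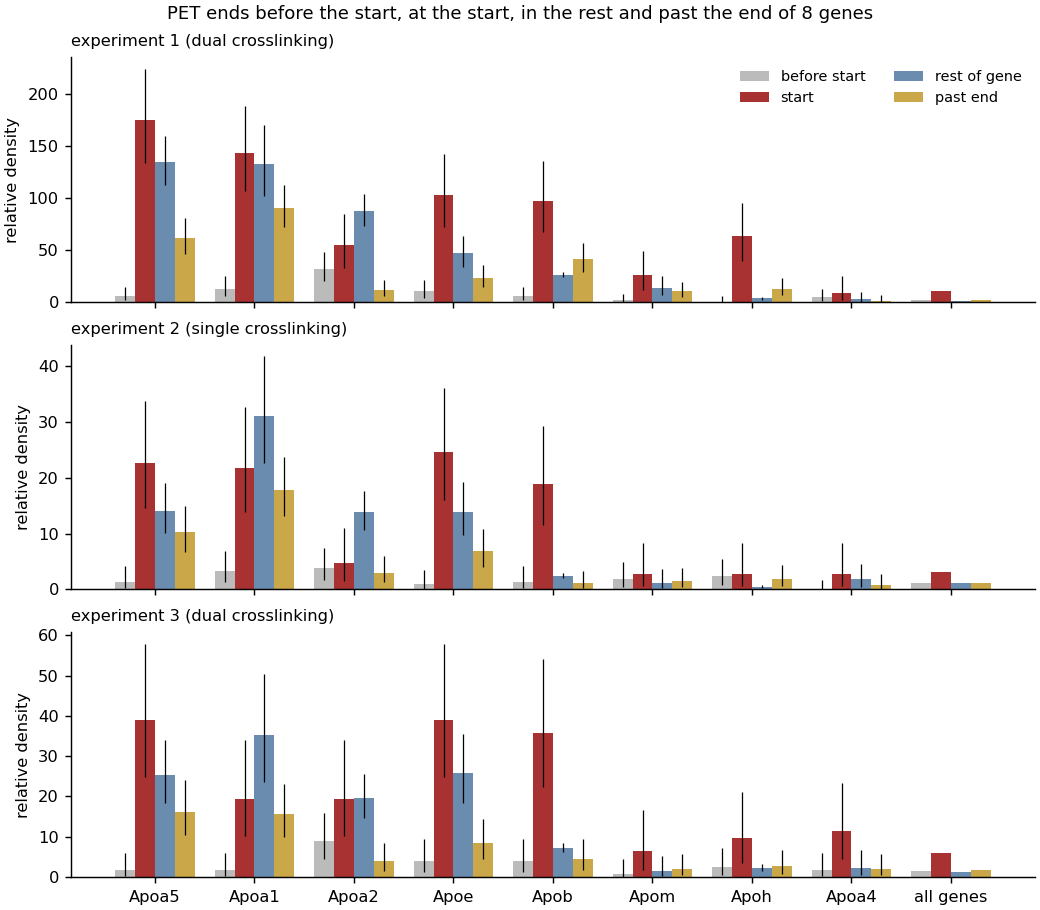
Relative density of PET ends in the 2 kb before the start window, within 500 bp of the outermost annotated start, in the rest of the gene and in the 2.5 kb past its end, for 8 genes and for all genes together, in each experiment. Lines are exact 95% Poisson intervals. For *Apoh* the start (63.0 in experiment 1) stands apart from the rest of the gene (3.39), while for *Apoa1* both are high. The outermost annotated start of *Apoe* lies inside its gene span, so most of the stretch before it does too.

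The promoter sequences of 5 members are shown. *Apoa1*, *Apoa5* and *Apoa2* were dense in all 3 experiments over their whole windows, and *Apoa4* and *Apoh* were not. Each is the 250 bases before an annotated start, 5′ to 3′ on the gene's strand, from the RefSeq promoter records of GRCm38.p6, all 5 genes being on the plus strand. Capitals mark matches, on either strand, to 5 motifs that were searched. The TATA box was taken as the letters TATAAA and the CCAAT box as its name spells it. The E-box, which basic helix-loop-helix proteins bind, was searched as CACGTG. For HNF1, a homeodomain protein, the core letters GTTAAT were used. The core of a direct repeat for nuclear receptors was searched as AGGNCAAAG. No pair of these motifs overlaps in the windows shown. *Apoa1* is at chr9:46228380-46228629, *Apoa5* at chr9:46268358-46268607, *Apoa2* (inner start) at chr1:171224804-171225053, *Apoa4* at chr9:46240594-46240843 and *Apoh* at chr11:108395047-108395296.
Apoa1: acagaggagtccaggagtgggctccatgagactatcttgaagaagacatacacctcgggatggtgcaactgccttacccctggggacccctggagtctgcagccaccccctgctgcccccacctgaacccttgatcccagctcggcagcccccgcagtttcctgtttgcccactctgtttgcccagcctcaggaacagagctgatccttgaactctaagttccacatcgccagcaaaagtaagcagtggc
Apoa5: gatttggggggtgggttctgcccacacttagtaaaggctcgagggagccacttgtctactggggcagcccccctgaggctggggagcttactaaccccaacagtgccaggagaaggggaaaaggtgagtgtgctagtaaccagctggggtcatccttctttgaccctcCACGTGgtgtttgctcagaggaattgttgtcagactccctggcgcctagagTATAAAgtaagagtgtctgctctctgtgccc
Apoa2: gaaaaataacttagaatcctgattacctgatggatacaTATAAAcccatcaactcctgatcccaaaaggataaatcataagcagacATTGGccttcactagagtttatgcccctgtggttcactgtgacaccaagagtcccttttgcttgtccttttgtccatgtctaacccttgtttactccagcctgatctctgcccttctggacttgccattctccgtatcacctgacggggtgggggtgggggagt
Apoa4: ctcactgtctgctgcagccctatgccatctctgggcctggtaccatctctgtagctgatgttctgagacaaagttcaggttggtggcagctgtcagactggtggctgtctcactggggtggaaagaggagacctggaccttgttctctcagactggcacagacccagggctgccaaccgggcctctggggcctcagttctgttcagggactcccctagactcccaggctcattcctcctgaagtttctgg
Apoh: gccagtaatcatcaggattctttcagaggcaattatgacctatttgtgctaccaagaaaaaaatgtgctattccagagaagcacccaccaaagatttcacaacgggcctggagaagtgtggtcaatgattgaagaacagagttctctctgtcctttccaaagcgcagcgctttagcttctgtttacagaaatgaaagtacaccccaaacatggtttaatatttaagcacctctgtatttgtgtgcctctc

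These 250 bases held 10, 6 and 2 ends for *Apoa1*, 10, 5 and 9 for *Apoa5* and 15, 9 and 6 for *Apoa2*. They held 8, 1 and 2 for *Apoh* and 0, 1 and 2 for *Apoa4*. In experiment 3 *Apoa1*, *Apoh* and *Apoa4* thus held 2 each, and in experiment 1 *Apoh* was near *Apoa1*, at 8 against 10. The dense *Apoa5* promoter has a TATA box at -31 and an E-box at -82, counted in bases from the start to the first base of the match. The *Apoa2* promoter has a TATA box at -212 and, as ATTGG on the printed strand, a CCAAT box at -164. None of the 5 motifs is in the windows of *Apoa1*, *Apoa4* or *Apoh*, so their presence did not follow the density of ends among these 5. *Apob*, not printed, has a TATA box at -60. Of 32851 promoter records, 12.4% hold the TATA box, 33.8% the CCAAT box, 6.02% the E-box, 6.43% the HNF1 core and 1.80% the receptor core in the same 250 bases. A match describes the letters only.

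Across the 48.3 kb of the *Apoa1*-*Apoc3*-*Apoa4*-*Apoa5* cluster (chr9:46226130-46274421, with 2.5 kb either side), the ends formed 2 dense blocks with a sparse stretch between them. The cluster held 557, 286 and 229 ends in the 3 experiments. The 2.58 kb between *Apoa1* and *Apoc3* had 87.8, 17.6 and 15.1 and the *Apoc3* gene body 64.3, 11.3 and 16.3. In steps of 500 bp the coverage between the genes was uneven: in experiment 3 the step centred 2.25 kb from the left end of *Apoa1* held 12 ends, and the one centred at 4.25 kb held 0. Density then fell off past *Apoc3*. The 5.21 kb between *Apoc3* and *Apoa4* had 5.51, 1.09 and 3.12, the *Apoa4* gene body 5.49, 1.81 and 3.73, and the 25.1 kb between *Apoa4* and *Apoa5* 6.27, 1.39 and 2.33. It rose again to 151, 16.6 and 28.9 over *Apoa5* and remained at 62.0, 10.2 and 16.2 in the 2.5 kb to its right. The next gene on that side, *Zpr1*, for a zinc finger protein, begins 1.14 kb past *Apoa5* and had 7.49, 2.17 and 4.41 over its body. On the other side *Sik3*, a kinase gene, had 1.47, 1.05 and 1.83.

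**Figure D3:**
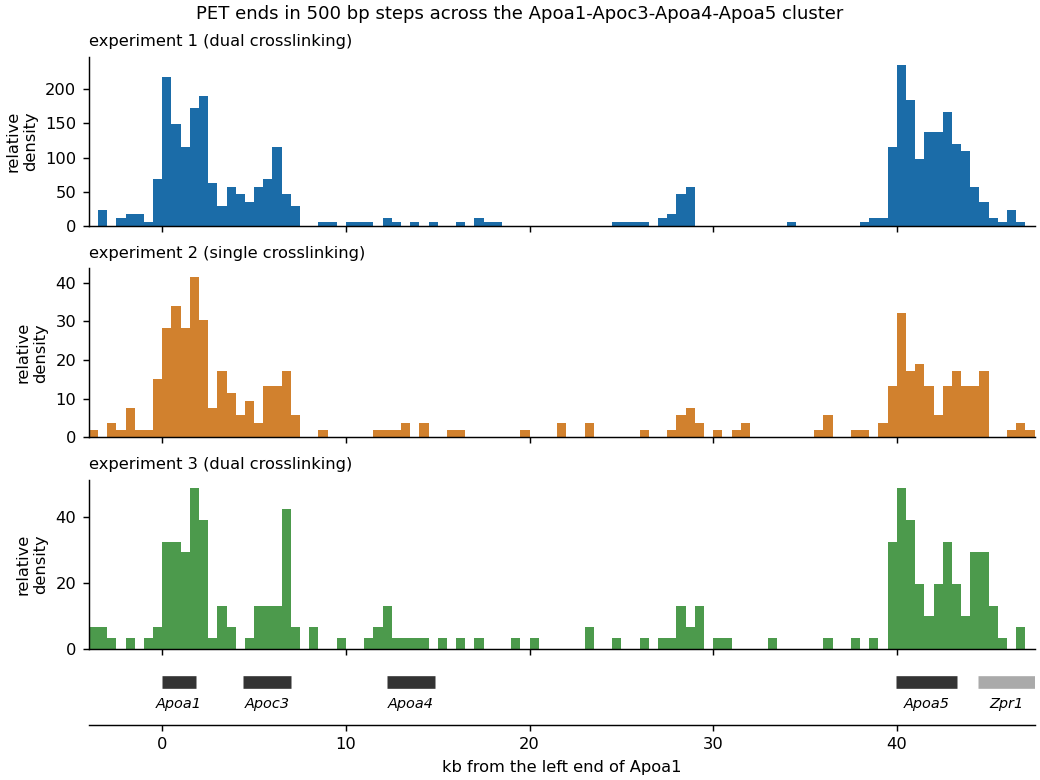
Relative density of PET ends in steps of 500 bp along the *Apoa1* cluster, in kb from the left end of *Apoa1*, with 1 panel and scale per experiment and the genes drawn to scale below. In each experiment ends concentrate over *Apoa1*-*Apoc3* and over *Apoa5*, and *Apoa4* lies in the sparse stretch.

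Contacts inside this cluster were almost all very short. Both ends lay inside it for 139, 37 and 35 PETs, 211 in all. Of these, 193 spanned at most 1 kb and 15 spanned 1 to 2 kb. Only 3 spanned more than 2 kb, all in experiment 1. One joined a point 518 bp left of *Apoc3* to the gene body over 2.19 kb, another joined points within *Apoc3* over 2.21 kb, and the third ran 2.18 kb within the gap between *Apoc3* and *Apoa4*. No PET joined *Apoa1* or *Apoc3* to *Apoa5*, the 2 dense blocks of the cluster, which with 211 PETs allows a share of up to 1.42%. PETs over 2 kb were few at genes at large too. With both ends in the window of 1 gene, they came to 2.45 per 1000 ends over all protein-coding genes and 3.80 over the 10 members. These rates pool the experiments and windows of unlike length, so they are not directly comparable.

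The *Apoe*-*Apoc1* cluster (chr7:19686980-19703810, 16.8 kb) was covered throughout between its 2 genes. It held 179, 136 and 148 ends. *Apoc1* had 40.6, 9.52 and 21.5 over its body, the 3.58 kb between the genes 25.6, 7.39 and 11.8, and *Apoe* 47.0, 11.9 and 21.5. The 2.5 kb to the right of *Apoe* dropped to 3, 0 and 3 ends, or 3.44, 0 and 1.95. *Tomm40*, the gene for a mitochondrial import channel that follows there, had 3.86, 1.14 and 1.95 over its body. On the *Apoc1* side the 2.5 kb outside had 18.4, 4.54 and 6.50. The next gene beyond is *Apoc4*, another apolipoprotein gene, 8.02 kb away, with 11.9, 1.68 and 3.37 over its body.

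**Figure D4:**
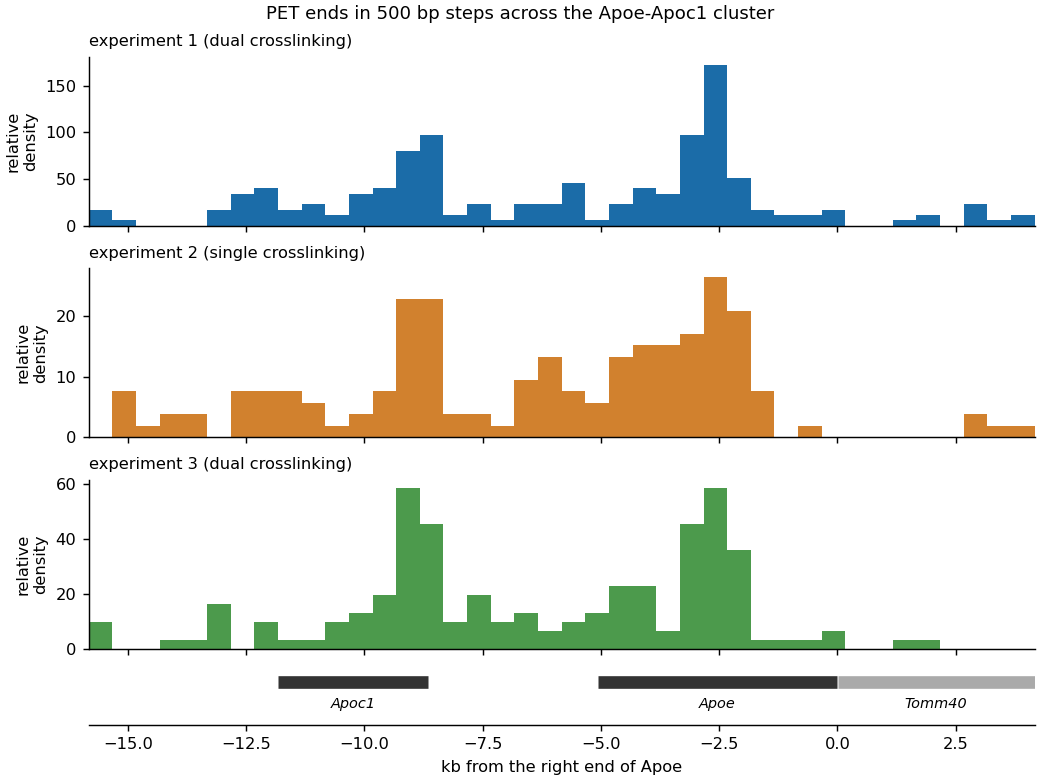
Relative density of PET ends in steps of 500 bp along the *Apoe*-*Apoc1* cluster, in kb from the right end of *Apoe*, with 1 panel and scale per experiment. Ends concentrate at the right side of *Apoc1* and around the annotated starts of *Apoe*, and fall to few ends to the right of *Apoe* (3, 0 and 3 in 2.5 kb).

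Inside this cluster lay both ends of 39, 19 and 24 PETs, 82 in all, of which 76 spanned at most 1 kb and 3 spanned more than 2 kb. The 2.76 kb PET of experiment 1 stayed within *Apoe*, and its read-1 position was shared with 2 other PETs. Experiment 3 gave the other 2. A PET of 3.86 kb joined the gap 1.71 kb beyond *Apoc1* to *Apoe*, and a PET of 8.81 kb joined the gap 1.12 kb beyond *Apoc1* to *Tomm40*, across the whole of *Apoe*. None joined the body of *Apoc1* to that of *Apoe*, which allows up to 3.66% of the 82 PETs.

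Contacts over longer distances were few, and each pair of positions was seen once. Between 8 kb and 1 Mb, 13 PETs had an end over one of the 10 genes, 4 in experiment 1, 1 in experiment 2 and 8 in experiment 3. They touched 7 of the 10 genes, where 24.5% of protein-coding genes had at least 1 such PET. Since that share grows with the number of ends, the rate is also given: summed over windows, 5.53 per 1000 ends for the members and 2.62 for all protein-coding genes. The 16 PETs of this sum count those in overlapping windows for each gene. Both rates pool the experiments in unlike proportions: experiment 1 gave the most ends over the members, and experiment 2 the most over the nuclear chromosomes. With 8 of the 13 PETs from experiment 3 and no rate per experiment, the 2 rates are not directly comparable. *Apoa4*, *Apoa5* and *Apom* had none, *Apoa5* in spite of its 442 ends.

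*Apoa2* had 5 of the 13, the most of any member. In experiment 1 a PET joined the stretch just before its inner start to *Sdhc*, for a subunit of succinate dehydrogenase, 81.6 kb away. Experiment 3 gave the other 4, among them PETs whose far ends lay in *Cfap126*, a gene for a cilia protein, at 96.1 kb, in *Fcer1g*, for the gamma chain of an Fc receptor, at 8.29 kb, and near *Pcp4l1* at 21.8 kb. The 5 far ends lay in or near different genes. The rates were 14.4 per 1000 ends for *Apoa2* and 1.31 for *Apob*, each from few PETs. *Fcer1g* itself had 1.20, 0.594 and 3.06 over its body, so it was not dense in experiments 1 and 2.

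Within the *Apoe* region 2 PETs reached the next apolipoprotein genes on the same side. In experiment 1 *Apoe*, near its innermost start, was joined to *Apoc2*, the activator of lipoprotein lipase, at 20.6 kb. In experiment 3 the gap beyond *Apoc1* was joined to *Apoc4* at 15.4 kb. The same gap had the 8.81 kb PET to *Tomm40* given above and, in experiment 1, a PET to *Psg17*, a pregnancy-specific glycoprotein gene, 879 kb away. On chromosome 9 the gap between *Apoa1* and *Apoc3* was joined to *Bud13*, for a splicing factor, at 56.2 kb in experiment 2, and *Apoc3* to a point 12 bp from *Sik3* at 11.2 kb in experiment 3. *Apob* had 1 PET, of 851 kb in experiment 1, to a stretch with no gene nearer than *Apob* itself. *Apoh* had 1, of 30.6 kb in experiment 3, whose far end lay 21.8 kb from *Prkca*, a protein kinase C gene.

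Most PETs of these genes joined them to other chromosomes, though in a smaller share than among all PETs. Of the PETs with an end over a member, 717 of 1086 in experiment 1, 456 of 563 in experiment 2 and 450 of 590 in experiment 3 were of this kind. These shares were 66.0%, 81.0% and 76.3%, below the 73.1%, 88.7% and 80.2% of all nuclear PETs. None of the 1623 PETs between a member and another chromosome joined 2 different apolipoprotein loci, which allows a share of up to 0.185%. Nor did any PET join a member to the mitochondrial chromosome.

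The median of the members was above that of all genes in both kinds of PET, and further above it in the short ones. Counting only PETs between chromosomes, relative to their own mean, the median of the 10 genes was 22.5, 5.69 and 7.97, beside 1.19, 1.16 and 1.39 for the median protein-coding gene. Among PETs within 8 kb it was 59.2, 33.7 and 26.5, beside 1.21, 1.14 and 1.38. *Apoa1* had 56.2 (45.6 to 68.5), 12.8 (10.2 to 15.9) and 13.9 (10.2 to 18.5) between chromosomes, and 179 (145 to 218), 66.6 (44.9 to 95.1) and 32.2 (19.7 to 49.7) within 8 kb. The intervals of the 2 kinds were well apart for *Apoa1* in experiments 1 and 2. In experiment 3 they were apart only narrowly, at 18.5 and 19.7. The 20 ends of short PETs there came from 10 PETs, so no difference is read from that gap. Both ends of a short PET can fall in one window, so its intervals are narrower than the counting error of PETs. Between chromosomes in experiment 2, *Apoh* had 0.708, *Apom* 1.09 and *Apoa4* 1.26, near the median gene. *Apoa4* had 0 ends of PETs within 8 kb in experiments 2 and 3, and 5 in experiment 1.

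**Figure D5:**
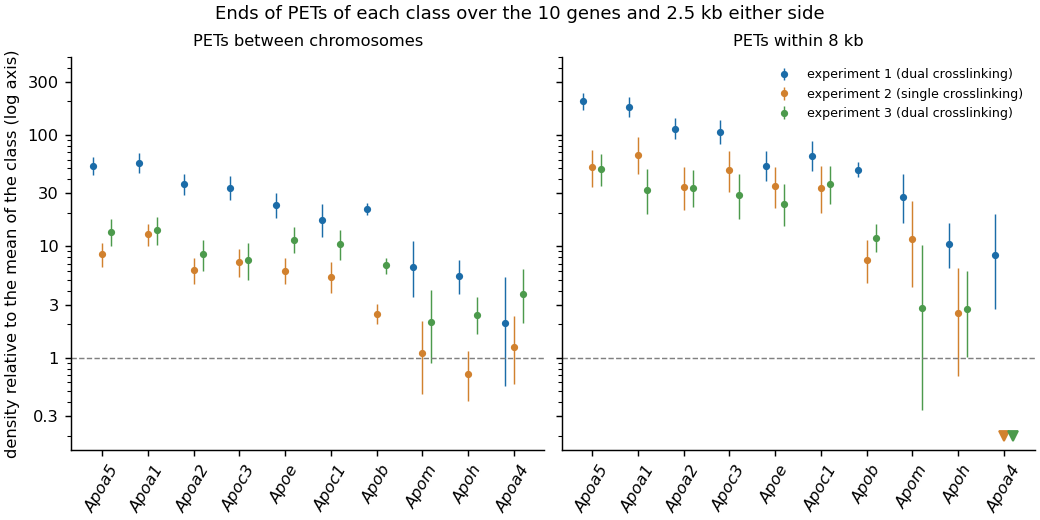
Relative density of ends of PETs between chromosomes (left) and of PETs within 8 kb (right), each relative to the mean of its class (log axis), for the 10 genes in the 3 experiments, with exact 95% Poisson intervals. Triangles mark 0 ends, and the dashed line is the class mean. For *Apoa1* in experiment 1 the values are 56.2 and 179.

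Other genes of lipoprotein metabolism were dense less evenly. Of 7 further genes, apolipoprotein genes and *Apobr* for an apolipoprotein B receptor, 1 was dense in all 3 experiments, against 1.69% of protein-coding genes. It was *Apof*, whose protein inhibits lipid transfer between lipoproteins, at 19.0, 5.76 and 7.74. *Apon* had 18.2, 2.51 and 1.44, and *Apoc2* 9.34, 2.58 and 2.86, while *Apod* had 0.729, 1.28 and 1.58 and *Apobr* 3.43, 1.54 and 1.59. Among 10 genes for particle assembly, lipases and plasma remodelling, 2 were dense in all 3, against the same 1.69%. *Angptl8*, a regulator of lipoprotein lipase, had 69.6, 9.27 and 20.9, and *Lcat*, which esterifies cholesterol on high-density lipoprotein, 13.0, 5.13 and 8.07. *Angptl4*, an inhibitor of lipoprotein lipase, had 14.3, 2.75 and 3.76. The lowest of that list were *Lipc*, hepatic lipase, at 1.03, 0.993 and 1.5, and *Abca1*, a cholesterol exporter, at 2.16, 0.973 and 2.54.

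None of 6 lipoprotein receptor genes was dense in all 3 experiments, which with 6 genes is close to the 1.69% of all protein-coding genes. In experiments 1 and 3, 2 of the 6 were dense each time, against 17.0% and 9.71% of all genes. *Lrp1*, which takes up remnants, had 4.11, 1.10 and 3.95, and *Scarb1*, the high-density lipoprotein receptor, 1.91, 0.891 and 2.42. *Sort1* had 0.765, 0.986 and 1.52, and *Cd36*, a fatty acid transporter, 0.690, 1.10 and 0.969. Among 10 genes for transcription factors that act on apolipoprotein genes, 3 were dense in all 3 experiments, against 1.69% of protein-coding genes. These were *Cebpa* at 69.9, 15.2 and 24.2, *Foxa2* at 28.7, 4.79 and 6.43 and *Foxa1* at 13.6, 3.28 and 5.63. The lowest were *Nr1h4*, the bile acid receptor, at 4.89, 1.23 and 2.89 and *Ppara*, the fatty acid receptor, at 5.74, 1.30 and 3.99. All 10 were dense in experiment 1, against 17.0% of protein-coding genes, and 9 in experiment 3, against 9.71%.

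The genes beside the lone members were near the typical gene where they lay far off, and mostly denser where they lay close. *Klhl29* and *Ldah*, 2602 kb and 191 kb from *Apob*, had 0.837 and 1.52 over their bodies in experiment 1, and *Prkca* and *Cep112*, 51.4 kb and 10.8 kb from *Apoh*, 1.06 and 0.955. *D17H6S53E*, 0.142 kb from *Apom*, had 9.35, 1.93 and 2.65 and *Bag6*, for a protein chaperone, 3.35 kb from it, 2.83, 1.56 and 1.20. *Nr1i3*, the nuclear receptor gene 2.72 kb from *Apoa2*, had 12.8, 5.97 and 4.63. Of 19739 genes with ends in each experiment, *Junb*, *Gpx1*, *H1f0* and *Rbp4* were among the 5 closest to the median of the members by distance of log2 relative density over the 3 experiments. *Junb* had 32.7, 8.02 and 12.6.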

How the data were processed

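Pol II ChIA-PET of mouse liver was analysed from the table the authors deposited, in which a row gives the experiment, the linkers, and the chromosome and position of both ends of a PET. Bowtie2 and mm10 are named, without role or version, per the submitters' processing notes. How PETs were filtered or duplicates removed is not stated in the sources at hand. Gene spans and promoters came from RefSeq tables of GRCm38.p6, the same build. Rows with a mitochondrial end were left out, which kept 2751289 PETs. Counts of ends per base, over genes with 2.5 kb added on each side, were divided by the mean over 2722.2 Mb of nuclear chromosomes, taken as the sum of the highest positions seen. Intervals are exact Poisson or, for ratios, exact conditional binomial (scipy 1.17.1, pandas 2.3.3, Python 3.11.15), at 95%. A limit for a count of 0 is 3 counts of the total. Counting was tested on simulated data. How well tags map over each gene was not tested. The members and lists were chosen with earlier results of these data known. Named genes are the members, their neighbours, the genes at far ends, the 3 highest and 2 lowest of each list in experiment 1, and the 5 genes closest to the median of the members. Other genes named (*Alb*, *Serpina1a*, *Sox9*, *Fabp2*, *Alpi*, *Foxa1*) were chosen after their values were seen. A few genes that this rule names are not reported here. Alternatives were other flanks, PET classes, linker subsets, collapsed near-duplicates and minimum distances.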

Additional observations from a re-analysis of the deposited data

How the results depend on the processing

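Over 7 results, 63 alternatives were computed, of which 41 stayed close to the value reported and 22 moved. The median relative density of the 10 genes was 38.3 in experiment 1 with 1 kb either side. Without flanks it was 43.8, 10.4 and 18.3 in experiments 1, 2 and 3. With PETs between chromosomes alone it was 22.5, 5.69 and 7.97, and with those within 8 kb alone 59.2, 33.7 and 26.5. Relative to the median protein-coding gene it was 24.4 in experiment 1 and 8.50 in experiment 3, and in linker subset 1 of experiment 2 it was 10.8. With these flanks, PET classes and linker subsets the median of all protein-coding genes was 1.13 to 1.44. Of the 3 PETs over 2 kb in the *Apoa1* cluster, minimum distances of 1 kb, 4 kb and 8 kb gave 18, 0 and 0, and leaving out experiment 1 gave 0. In the *Apoe* cluster these minimum distances gave 6, 1 and 1 in place of 3, and leaving out experiment 3 gave 1. The 13 longer contacts came down to 5 without experiment 3.

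The 6 genes dense in all 3 experiments were the same with 1 kb flanks, no flanks, PETs between chromosomes alone, near-duplicates within 2 bp collapsed and linker subset 2, alternatives chosen after seeing the data. Subset 1 gave 7. No paired analysis was possible because no column names a library. Depth limits *Apoa4*, *Apom* and single long PETs most, and 1 PET cannot be told from chance ligation here. The cause of these shifts was not tested.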

Other observations

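The sparse stretch between *Apoa4* and *Apoa5* was not uniformly low. Its densest 2 kb in experiment 1, chosen after the values were seen, lay at chr9:46255600-46257599 (GRCm38). Its centre was 13.1 kb past the end of *Apoa4* and 12.0 kb before the start of *Apoa5*. It held 23, 8 and 7 ends in experiments 1, 2 and 3, or a relative density of 33.0 (20.9 to 49.5), 3.78 (1.63 to 7.46) and 5.68 (2.29 to 11.7). The other 23.1 kb of the stretch had 32, 29 and 29 ends, or 3.97 (2.71 to 5.60), 1.19 (0.794 to 1.70) and 2.03 (1.36 to 2.92), and without the 2.5 kb next to each gene 1.42, 0.834 and 1.34. Experiment 1 chose the block, so its value there is a description. Of 1361130 steps of 2 kb in the nuclear chromosomes, 1.18% were at least as dense in experiment 2 and 0.903% in experiment 3. Of the 15, 7 and 7 PETs with an end in the block, 7, 5 and 6 joined it to another chromosome, and none joined it to a gene of the cluster.

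In experiment 2 the 2 linker subsets differed for several members, and for dense genes at large: the 370 genes dense in all 3 experiments had a median of 6.22 in subset 1 and 3.20 in subset 2. *Apoa5* had 19.4 in subset 1 and 8.41 in subset 2, *Apoa2* 14.3 and 6.25, and *Apoe* 13.5 and 5.97, while *Apoc1* had 8.08 and 6.75, *Apoa4* 1.08 and 1.13 and *Apoh* 0.686 and 0.916. In experiment 3 *Apoa5*, *Apoa2* and *Apoe* had 18.9 and 18.3, 12.9 and 13.9, and 14.9 and 12.0. The sources at hand do not tie linkers to libraries.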
